A study of Mus musculus with 36 samples.

Results

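Gastrocnemius muscles of mice that ran without restriction on a high-fat diet (HFD-U) were compared with those of sedentary mice on the same diet (HFD-C) to ask which transcripts differed with unrestricted wheel running. The comparison used 12 of the 36 libraries of the series, 6 mice per group, taken by the treatment that the labels give each library. All mice were male, wild-type (WT) C57BL/6, aged 3 to 4 weeks before they were acclimated and assigned to groups, and were killed after 12 weeks. HFD-U mice had an in-cage wheel without restriction and averaged 8.3 km/day. HFD-C mice were sedentary and ate the same diet, so diet, sex, strain and genotype were shared by all 12 mice. In a further comparison HFD-U mice were set against 18 mice on that diet whose wheels were braked once a daily distance was met. The braked groups averaged 6.3 km/day (HFD-75%), 4.2 km/day (HFD-50%) and 2.1 km/day (HFD-25%), and their brakes were released at Zeitgeber time 12, when the lights went off. The 6 remaining mice, sedentary on the lower-fat AIN93G diet (NFD-C), entered only the levels given for clock genes, the shares of ribosomal RNA features and the spread within groups. The distances are group averages, and the distance of each mouse was not used here.

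The gastrocnemius is a calf muscle that in mice is built mostly of fast glycolytic fibres, with fewer fast oxidative and slow fibres, and also holds vessels, connective tissue, nerve, resident satellite cells and some fat. Repeated endurance exercise is known to act on muscle through mitochondrial and fatty acid metabolism, fibre type, capillary supply and remodelling of the extracellular matrix, while single bouts induce immediate early genes and stress genes for hours. Muscle also has its own circadian clock, in which Bmal1 (Arntl) drives repressors such as Nr1d1 (REV-ERBα) and Bhlhe40 (DEC1) through E-box elements, and feeding and activity are known to shift it.

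Library totals ran from 14611063 to 17757846 counts in HFD-U and from 15545094 to 27981702 counts in HFD-C. Levels below are given in CPM, the count of a gene relative to the scaled total of its library, for each mouse. The libraries were skeletal muscle by their markers: Ckm (muscle creatine kinase) averaged 12172 ± 1461 CPM (SD, n = 6) in HFD-U and 10851 ± 2374 CPM in HFD-C, and Myh4, the 2B myosin heavy chain, averaged 47484 ± 11082 and 45482 ± 10820.1 CPM. A split ran through the HFD-C libraries. The 6 features linked to ribosomal RNA (rRNA) took 2.12% to 3.54% of counts in HFD-C replicates 1 to 4, but 0.551% and 0.626% in HFD-C replicates 5 and 6 and 0.470% to 0.622% in the 6 HFD-U libraries. Of these features, 4 were lower in HFD-U at p of at most 0.05, with a median log2 fold change of -2.78 over all 6, and when HFD-C was held to replicates 5 and 6 the median of the 5 that could be fitted was 0.0096, with mt-Rnr1, the mitochondrial 12S rRNA, at -0.71 and called. In the rest of the series the share was 2.01% to 3.81% in NFD-C. It was 0.498% to 0.700% in HFD-25%, 0.560% to 1.02% in HFD-50% and 0.404% to 0.823% in HFD-75%. High shares thus occurred in sedentary libraries alone. The labels give no reason for the split. The comparison of HFD-U with HFD-C was also fitted on the 8 of its libraries with a low share (6 HFD-U, 2 HFD-C). Those values are given below for the genes with the smallest p and for genes whose sign turned. For the gene lists they are given as counts or in the plot of list medians.

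Across the transcriptome the groups differed little, and no gene passed the adjusted threshold. Of 12023 genes tested with edgeR, 657 (5.46%) reached an unadjusted p of at most 0.05, 259 higher in HFD-U (2.15%) and 398 lower (3.31%). None (0%) reached a Benjamini-Hochberg adjusted p of 0.05, the smallest being 0.236, while DESeq2 called 28. Without HFD-C replicate 5, 6 genes passed the edgeR adjusted threshold, and without HFD-C replicate 6, 8 genes did. An unadjusted p of 0.05 by itself admits a share of genes close to the share found, so the genes named here are those with the smallest p and not a set that passed. The middle 90% of log2 fold changes lay between -0.43 and 0.34, with a median of -0.01. Values of the groups did not overlap for 35 genes (0.291%), 14 higher (0.116%) and 21 lower (0.175%) in HFD-U. Same-numbered mice of the groups deviated together, and when this number was entered as a block 1232 genes (10.2%) reached the unadjusted threshold, 580 higher (4.82%) and 652 lower (5.42%). In that fit 11 genes (0.0915%) passed the adjusted threshold. On the 8 low-share libraries 1390 of 11776 genes (11.8%) reached the unadjusted threshold, 664 higher (5.64%) and 726 lower (6.17%), and again none (0%) passed after adjustment. Of the 657 genes, 612 could be fitted in those libraries, 589 had the same sign there and 254 were also at p of at most 0.05. That fit reuses mice of the comparison by which the 657 were chosen, so it is not independent of that choice. Counts of called genes in the lists below stand beside these shares over all genes: 5.46% over the 12 libraries, 10.2% with the block and 11.8% in the low-share libraries. Fold changes below are log2 values, HFD-U minus HFD-C. A gene is termed called where its unadjusted edgeR p was at most 0.05, and the p printed beside it is the Benjamini-Hochberg adjusted one. Where leaving out 1 library ended a call, the fold change without the library whose removal raised p most is given.

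**Figure D1:**
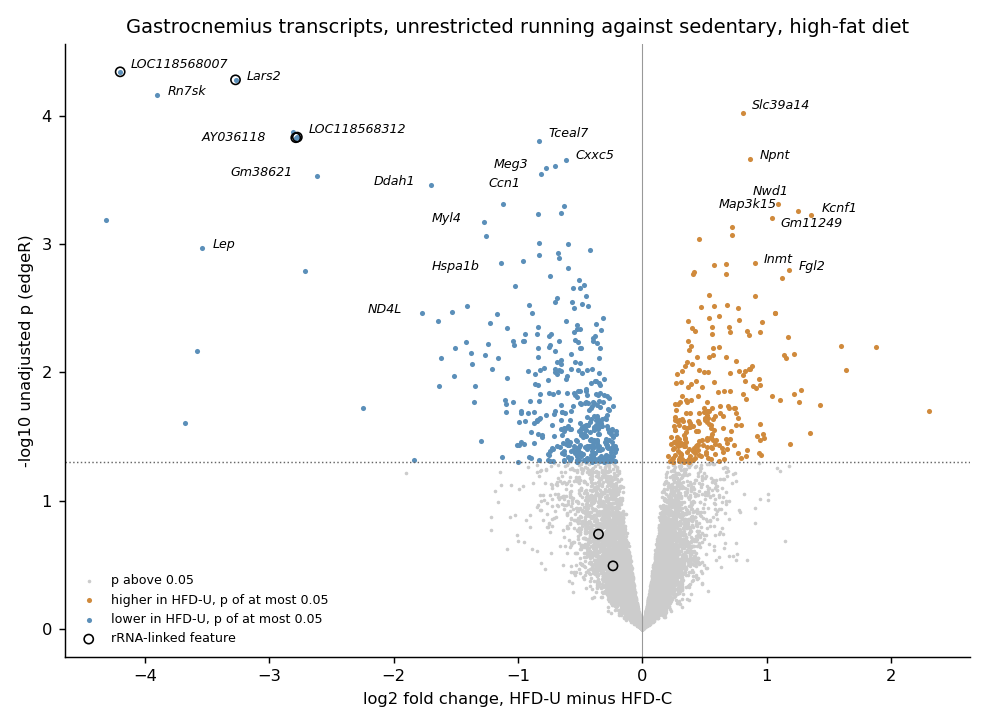
Each point is 1 of the 12023 genes tested, with the log2 fold change (HFD-U minus HFD-C) on the x axis and -log10 of the unadjusted edgeR p on the y axis. The dotted line marks the threshold of 0.05; orange points (259) were higher in HFD-U and blue points (398) lower, and open circles mark the 6 rRNA-linked features, the farthest of which lie at the upper left.

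Among the 12 genes that were higher in HFD-U with the smallest p, the first was Slc39a14, a zinc, iron and manganese importer (ZIP14). Slc39a14 ranged over 15.2 to 28.0 CPM in HFD-U, with a median of 22.7, against 9.09 to 15.9 CPM in HFD-C, with a median of 13.0 (log2 fold change 0.81 ± 0.16 (SE), adjusted p = 0.236). The groups overlapped only between the lowest HFD-U mouse and the highest HFD-C mouse, and Slc39a14 was higher in the HFD-U mouse of all 6 number-matched pairs. Npnt (nephronectin, an extracellular ligand of integrin α8β1) ranged over 11.4 to 24.1 CPM in HFD-U, with a median of 17.5, against 6.60 to 12.1 CPM in HFD-C, with a median of 9.11 (log2 fold change 0.87 ± 0.18 (SE), adjusted p = 0.254). Kcnf1, a modulatory voltage-gated potassium channel subunit, showed the greatest fold change of the 12, at 18.1 to 43.0 CPM in HFD-U, with a median of 22.9, against 5.06 to 20.9 CPM in HFD-C, with a median of 7.43 (log2 fold change 1.36 ± 0.32 (SE), adjusted p = 0.322). HFD-U mice lay above HFD-C mice throughout for Golm2, a Golgi membrane protein, at 14.2 to 18.2 CPM in HFD-U, with a median of 15.4, against 6.97 to 13.2 CPM in HFD-C, with a median of 9.04 (log2 fold change 0.72 ± 0.17 (SE), adjusted p = 0.34). The same held for Tmem135, a protein of mitochondria and peroxisomes, with 22.4 to 28.6 CPM in HFD-U, with a median of 23.8, against 15.8 to 20.9 CPM in HFD-C, with a median of 19.2 (log2 fold change 0.41 ± 0.11 (SE), adjusted p = 0.436).

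Map3k15, the ASK3 kinase of the stress-activated MAP kinase cascade, was scarce and higher in HFD-U, with 1.54 to 3.78 CPM in HFD-U, with a median of 3.16, against 0.666 to 1.63 CPM in HFD-C, with a median of 1.18 (log2 fold change 1.25 ± 0.29 (SE), adjusted p = 0.322). Inmt, which methylates indolethylamines, ranged over 30.1 to 50.5 CPM in HFD-U, with a median of 40.7, against 12.2 to 34.0 CPM in HFD-C, with a median of 21.0 (log2 fold change 0.90 ± 0.23 (SE), adjusted p = 0.427). Pak1, a kinase downstream of Rac1 and Cdc42, had 14.8 to 29.5 CPM in HFD-U, with a median of 20.5, against 9.14 to 16.1 CPM in HFD-C, with a median of 13.2 (log2 fold change 0.67 ± 0.17 (SE), adjusted p = 0.427), and Cdc42se2, a small Cdc42 effector, differed by 0.42 ± 0.11 (SE). The other 3 were Nwd1 (log2 fold change 1.09, adjusted p = 0.322), the zinc finger gene Zc3h6 (0.45, adjusted p = 0.375) and Fgl2, a fibrinogen-like secreted protein (1.18, adjusted p = 0.436). Fgl2 was set in part by HFD-U replicate 2 at 25.8 CPM, the other 5 HFD-U mice holding 7.59 to 12.8 CPM. All 12 were higher in the low-share libraries too, by 0.45 to 1.47 on the log2 scale, each of them called, and all 12 stayed called with any single library left out. These fits reuse mice of the comparison by which the genes were chosen, so they are not independent of that choice.

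Of the 12 lower genes with the smallest p, 11 are described here, and in 5 of these every HFD-U mouse lay below every HFD-C mouse. Kcnc1, the Kv3.1 potassium channel, ranged over 31.9 to 62.2 CPM in HFD-U, with a median of 56.2, against 71.5 to 147 CPM in HFD-C, with a median of 77.8 (log2 fold change -0.84 ± 0.20 (SE), adjusted p = 0.322). Ccn1 (CYR61), a matricellular protein and immediate early gene, had 16.3 to 24.6 CPM in HFD-U, with a median of 21.1, against 26.9 to 53.5 CPM in HFD-C, with a median of 32.5 (log2 fold change -0.81 ± 0.17 (SE), adjusted p = 0.254). The maternally expressed long non-coding RNA Meg3 ranged over 11.3 to 16.0 CPM in HFD-U, with a median of 15.2, against 17.0 to 34.5 CPM in HFD-C, with a median of 24.4 (log2 fold change -0.77 ± 0.16 (SE), adjusted p = 0.254). Cxxc5, a zinc finger protein that restrains Wnt signalling, ranged over 10.2 to 13.7 CPM in HFD-U, with a median of 12.2, against 15.3 to 22.4 CPM in HFD-C, with a median of 18.0 (log2 fold change -0.61 ± 0.13 (SE), adjusted p = 0.254), and Neu2, a cytosolic sialidase, over 5.96 to 8.40 CPM in HFD-U, with a median of 6.63, against 8.71 to 14.9 CPM in HFD-C, with a median of 10.4 (log2 fold change -0.65 ± 0.15 (SE), adjusted p = 0.322). For these 5 genes no mouse of either group crossed into the range of the other.

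Ndufb1, an accessory subunit of respiratory complex I, was lower in the HFD-U mouse of all 6 pairs, with 48.6 to 86.2 CPM in HFD-U, with a median of 60.2, against 82.7 to 134 CPM in HFD-C, with a median of 100.1 (log2 fold change -0.70 ± 0.15 (SE), adjusted p = 0.254). Ddah1, which degrades asymmetric dimethylarginine and so relieves nitric oxide synthase, ranged over 1.03 to 2.69 CPM in HFD-U, with a median of 1.68, against 2.45 to 11.8 CPM in HFD-C, with a median of 5.15 (log2 fold change -1.70 ± 0.37 (SE), adjusted p = 0.276). Myl4, the atrial and embryonic essential myosin light chain, ranged over 3.40 to 10.6 CPM in HFD-U, with a median of 6.31, against 9.80 to 30.6 CPM in HFD-C, with a median of 13.4 (log2 fold change -1.27 ± 0.30 (SE), adjusted p = 0.322). In both, the highest HFD-U mouse lay just above the lowest HFD-C mouse. Tceal7, a small X-linked transcription elongation factor-like gene, (-0.83, adjusted p = 0.236) and the imprinted antisense RNA Kcnq1ot1 (-0.83, adjusted p = 0.386) complete the group with Rn7sk, the 7SK small nuclear RNA that holds P-TEFb. Rn7sk (log2 fold change -3.90, adjusted p = 0.236) followed the rRNA-linked split: it was 6.54 to 8.82 CPM in HFD-C replicates 1 to 4, 0.121 and 1.16 CPM in HFD-C replicates 5 and 6 and 0.112 to 0.688 CPM in HFD-U. Kcnq1ot1 was not called in the low-share libraries (-0.37), and the other 9 that could be fitted there were again lower and called. All 11 stayed called with any single library left out. As for the higher genes, these fits reuse mice of the comparison by which the genes were chosen.

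**Figure D2:**
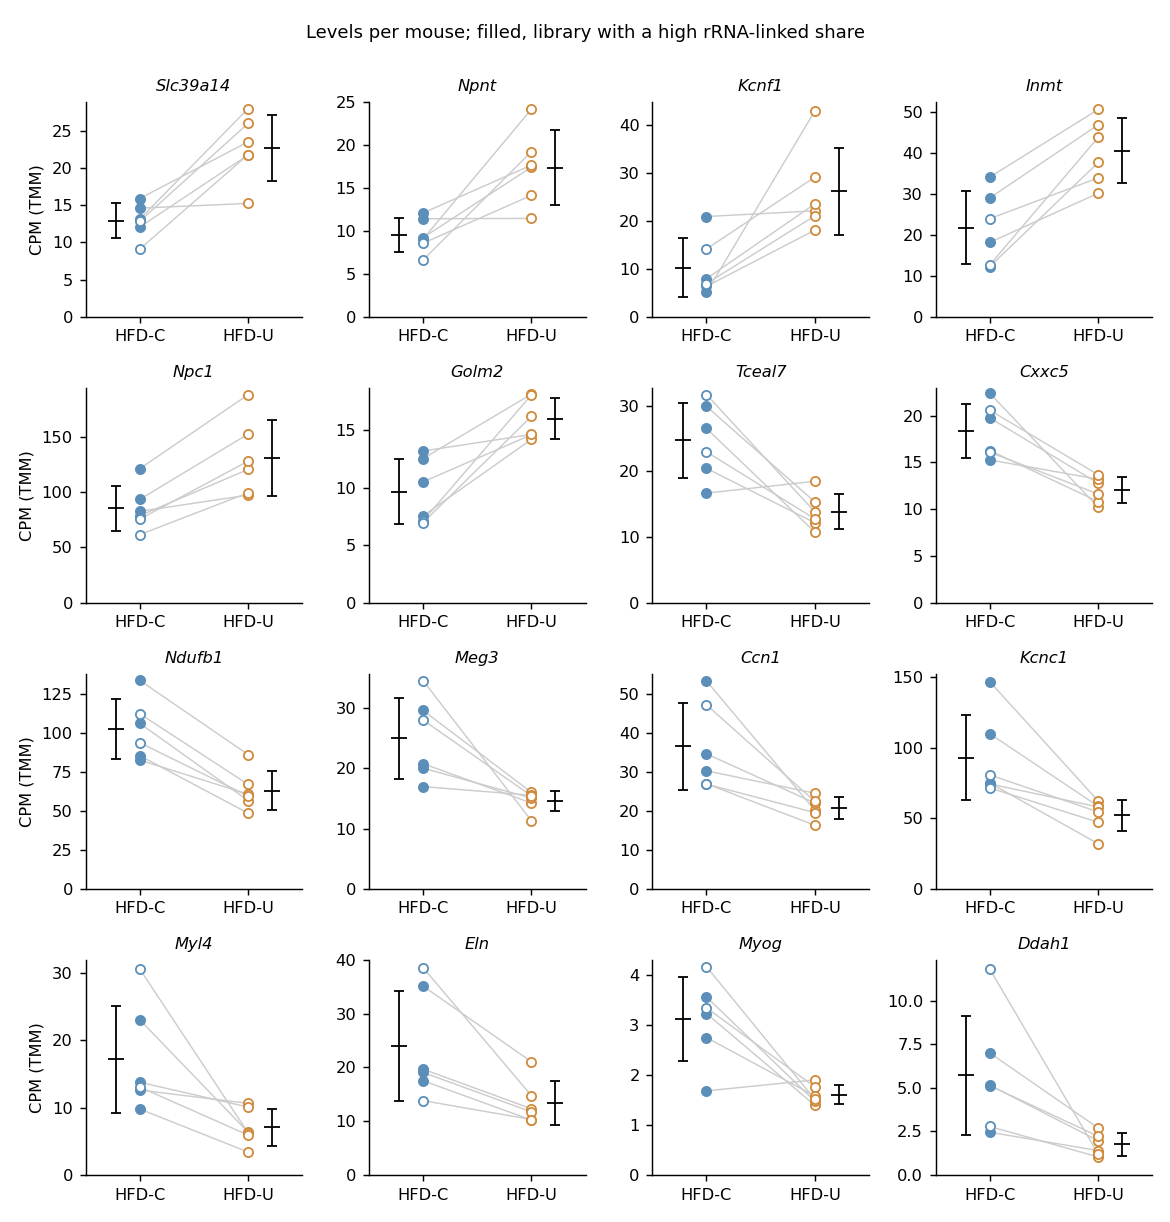
CPM of 16 genes (y axis, from 0) in the 6 HFD-C and 6 HFD-U mice (x axis), 1 point per mouse, with grey lines joining mice of the same number and bars giving the mean ± SD. Filled points are the 4 HFD-C libraries with a high rRNA-linked share; in Golm2, Cxxc5, Meg3, Ccn1 and Kcnc1 the groups do not overlap.

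In the blocked fit 11 genes passed a Benjamini-Hochberg adjusted p of 0.05 (0.0915% of genes), and 5 of these differed by 2-fold or more. The smallest adjusted p was that of Ndufb1 (log2 fold change -0.70, adjusted p = 0.0234), and Kcnc1 passed as well (log2 fold change -0.82, adjusted p = 0.0376). Npc1, the lysosomal membrane protein that releases cholesterol from the lysosome, was higher in the HFD-U mouse of all 6 pairs, with 97.1 to 188 CPM in HFD-U, with a median of 124, against 61.5 to 121 CPM in HFD-C, with a median of 80.6 (log2 fold change 0.61, adjusted p = 0.0268 in the blocked fit). Eln, the elastin gene, was lower in all 6 pairs, with 10.2 to 21.0 CPM in HFD-U, with a median of 12.0, against 13.8 to 38.5 CPM in HFD-C, with a median of 19.4 (log2 fold change -0.79, adjusted p = 0.0478). TrnC, the mitochondrial cysteine tRNA, was lower in all 6 pairs (log2 fold change -0.71, adjusted p = 0.0244). The pseudogenes that were higher numbered 3: Gm11249 (log2 fold change 1.09, adjusted p = 0.0234), Gm7336 (log2 fold change 0.77, adjusted p = 0.0268) and Amd-ps4, a copy of S-adenosylmethionine decarboxylase (log2 fold change 1.30, adjusted p = 0.0244). Reads of such copies can come from their parent genes, so these values are uncertain. The rest were the long non-coding RNA Gm38621 (log2 fold change -2.68, adjusted p = 0.0376), the small Cajal body RNA Gm22009 (log2 fold change -4.55, adjusted p = 0.0376) and the rRNA-linked LOC118568007 (log2 fold change -3.93, adjusted p = 0.0244). Gm22009, Gm38621 and LOC118568007 were too scarce in the low-share libraries to be fitted there. With a term for the HFD-C libraries of high share, without the block, they were at 1.01, -1.17 and -0.27, and none was called. Gm11249 (0.45) and Gm7336 (0.23) were not called in the low-share libraries. Ndufb1, Kcnc1, Npc1, Eln, TrnC and Amd-ps4 kept their direction and were called there. Npc1, Gm7336 and TrnC were picked for mention after their values were seen.

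Matrix genes leaned lower in HFD-U. Of 25 collagen chains tested, 4 (16%, against 5.46% of all genes) were lower and called and none higher, with a median log2 fold change of -0.37 (22 below 0). They were Col1a2 of type I collagen (-0.46, adjusted p = 0.883), Col6a3 of the pericellular type VI network (-0.48, adjusted p = 0.845), Col12a1 (-0.76, adjusted p = 0.912) and Col5a1 (-0.52, adjusted p = 0.912). Col1a2 was -0.35 and not called without HFD-C replicate 1, Col6a3 was -0.37 and not called without HFD-C replicate 1, Col5a1 was -0.37 and not called without HFD-C replicate 1 and Col12a1 was -0.53 and not called without HFD-C replicate 4. In the low-share libraries the collagen median was -0.016, with 2 lower and 1 higher, and Col5a1 was 0.077. The blocked fit had 8 collagens lower and 1 higher, and Col12a1 was -0.66 and not called. The lower median of the collagens was therefore not seen in those 8 libraries, of which 2 were sedentary.

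Matrix genes other than collagens were lower in both sets of libraries for some members. Of 32 interstitial matrix genes 4 were lower and none higher (median -0.23; 0.092 in the low-share libraries). Sparc, a collagen-binding matricellular protein, ranged over 90.2 to 151 CPM in HFD-U, with a median of 113, against 139 to 186 CPM in HFD-C, with a median of 155 (log2 fold change -0.45 ± 0.13 (SE), adjusted p = 0.539). Serpinh1, the collagen chaperone HSP47, ranged over 16.7 to 35.2 CPM in HFD-U, with a median of 26.7, against 31.0 to 51.2 CPM in HFD-C, with a median of 36.7 (log2 fold change -0.53 ± 0.16 (SE), adjusted p = 0.587). In both genes 5 of 6 pairs were lower in HFD-U, and Sparc (-0.62), Serpinh1 (-0.54) and Eln (-0.97) were lower in the low-share libraries as well. Loxl1, a lysyl oxidase that crosslinks elastin, was -0.44, adjusted p = 0.891 (-0.31 and not called without HFD-C replicate 1; -0.41 and not called in the blocked fit). Of 11 basement membrane genes 2 were lower, Hspg2 (perlecan; -0.49, adjusted p = 0.845; -0.40 and not called without HFD-C replicate 1) and Lamb2 (laminin β2; -0.21, adjusted p = 0.891; -0.17 and not called without HFD-C replicate 1), and Hspg2 was 0.26 in the low-share libraries. Of 10 fibroblast markers only Dpt (dermatopontin) was called (-0.37, adjusted p = 0.883; -0.30 and not called without HFD-U replicate 5), and none of 5 tendon markers was, the most abundant being Fmod, fibromodulin (-0.12, adjusted p = 0.997). The blocked fit had 5 interstitial matrix genes lower and 2 higher, and 4 basement membrane genes and 2 fibroblast markers lower and none higher. The basement membrane list went the other way in the low-share libraries, with 2 higher (Lama2, 0.78, and Lamc1, 0.70) and 0 lower (median 0.25), as did the fibroblast markers, with 1 higher and 0 lower, while 5 interstitial matrix genes were lower and 2 higher.

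Immediate early genes were lower in HFD-U where they differed. Of 26 tested, 5 (19.2%, against 5.46% of all genes) were lower and called, none was higher and 24 lay below 0 (median -0.27; -0.44 in the low-share libraries). Beside Ccn1 these were Jund, an AP-1 subunit, which held 38.3 to 43.0 CPM in HFD-U with a median of 41.4 and 37.5 to 77.6 CPM in HFD-C with a median of 55.8 (log2 fold change -0.50 ± 0.14 (SE), adjusted p = 0.493). HFD-U mice clustered narrowly at the low end of the HFD-C range of Jund. Sik1, a salt-inducible kinase, was -0.65, adjusted p = 0.798 (-0.43 and not called without HFD-C replicate 5). The flow-responsive factors Klf2 (-0.65, adjusted p = 0.868; -0.49 and not called without HFD-C replicate 6) and Klf4 (-0.54, adjusted p = 0.911; -0.37 and not called without HFD-C replicate 1) were lower too. In RefSeq promoter windows of GRCm38.p6 (32851 windows of 300 bases), the cAMP response element TGACGTCA was found in 3 of the 23 immediate early genes with an entry, Btg2, Dusp1 and Maff, against 1.79% of all windows, and the serum response element consensus in none of them. A gene counted where any of its windows held the letters, so the gene count and the share of single windows are unlike measures. Both strands were read, and a match of letters describes the window and not a bound site.

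Heat shock proteins went both ways. Of 27, 2 were higher and 3 lower (median -0.083). Hsph1, the HSP110 co-chaperone, ranged over 77.3 to 120.4 CPM in HFD-U, with a median of 108, against 59.6 to 86.4 CPM in HFD-C, with a median of 75.3 (log2 fold change 0.47 ± 0.13 (SE), adjusted p = 0.552), and its relative Hspa4l was 0.57, adjusted p = 0.883 (0.34 and not called without HFD-U replicate 1). The inducible HSP70 genes were lower, Hspa1b with 1.38 to 3.75 CPM in HFD-U, with a median of 2.02, against 3.27 to 8.19 CPM in HFD-C, with a median of 4.95 (log2 fold change -1.14 ± 0.29 (SE), adjusted p = 0.427) and Hspa1a with -0.90, adjusted p = 0.79 (-0.67 and not called without HFD-C replicate 1). These genes are near-identical copies, so the split of reads between them is uncertain. Hsp90b1, the endoplasmic reticulum chaperone GRP94, did not overlap between groups, with 72.8 to 81.9 CPM in HFD-U, with a median of 78.1, against 83.3 to 106 CPM in HFD-C, with a median of 90.0 (log2 fold change -0.23 ± 0.089 (SE), adjusted p = 0.801).

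The myogenic factors Myog, Myod1 and Myf6 were lower in HFD-U. Of 11 satellite cell and regeneration genes 3 (27.3%, against 5.46% of all genes) were lower and called and none higher (median -0.11). Without 1 library this median ran from -0.22 to 0.021. With the block 4 were lower and 0 higher. The low-share libraries had 2 lower and 0 higher (median -0.11), and Myod1 was -0.38 and not called there. Myog (myogenin), which drives terminal differentiation, ranged over 1.39 to 1.91 CPM in HFD-U, with a median of 1.55, against 1.69 to 4.18 CPM in HFD-C, with a median of 3.29 (log2 fold change -0.96 ± 0.25 (SE), adjusted p = 0.427), and 5 of 6 pairs were lower in HFD-U. Myod1, its upstream partner, was -0.59, adjusted p = 0.883 (-0.44 and not called without HFD-C replicate 4), and Myf6 (MRF4), the most abundant in adult fibres, was -0.26, adjusted p = 0.912 (-0.20 and not called without HFD-C replicate 6). In whole muscle, fewer cells of a type and less RNA per cell cannot be told apart.

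Of 27 Notch pathway genes 4 were lower and none higher (median -0.15; 0.066 in the low-share libraries). With the block 4 were lower and 0 higher. The low-share libraries had 3 lower and 0 higher, Dll1 (-1.06), Dtx3 (-0.46) and Jag2 (-0.38). The ligand Dll1, which signals to satellite cells, did not overlap between groups, at 1.65 to 3.10 CPM in HFD-U, with a median of 2.69, against 3.65 to 5.74 CPM in HFD-C, with a median of 4.65 (log2 fold change -0.83 ± 0.21 (SE), adjusted p = 0.415). The ligand Jag2 (-0.27, adjusted p = 0.854; -0.21 and not called without HFD-C replicate 5) and the Deltex ubiquitin ligases Dtx2 (-0.41, adjusted p = 0.842; -0.29 and not called without HFD-C replicate 6) and Dtx3 (-0.28, adjusted p = 0.912; -0.19 and not called without HFD-C replicate 5) were each lost in this way. Among 25 apelin pathway genes 3 were lower: the apelin receptor Aplnr (-0.85, adjusted p = 0.842; -0.64 and not called without HFD-C replicate 3), Klf2, given above, and the class IIa deacetylase Hdac5 (-0.22, adjusted p = 0.904; -0.14 and not called without HFD-C replicate 4). Among 31 cAMP pathway genes 2 were lower, the phosphodiesterase Pde4b (-0.49, adjusted p = 0.664) and the transcription factor Creb3l1 (-0.84, adjusted p = 0.867; -0.63 and not called without HFD-C replicate 3; -0.77 and not called in the blocked fit). Pde4b ranged over 27.7 to 60.5 CPM in HFD-U, with a median of 41.5, against 50.7 to 75.9 CPM in HFD-C, with a median of 60.9, with 5 of 6 pairs lower in HFD-U. Their medians were -0.039 for the apelin and -0.063 for the cAMP genes. With the block 6 apelin genes were lower and 0 higher, and 3 cAMP genes lower and 1 higher. The low-share libraries had 1 apelin gene higher and 1 lower, and 2 cAMP genes higher and 1 lower. Over the 12 libraries 14.8% of the Notch, 12% of the apelin and 6.45% of the cAMP genes were called, against 5.46% of all genes. The cAMP share was thus close to that over all genes.

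Adipocyte markers were lower in HFD-U, and 1 sedentary mouse set most of the difference. Of 13 markers 7 were abundant enough to test; 4 were lower and called, and the median log2 fold change of the 7 was -0.98. Lep, the satiety hormone leptin, was at 0.112 to 0.423 CPM in HFD-U with a median of 0.325 and at 0.438 to 16.5 CPM in HFD-C with a median of 0.975 (log2 fold change -3.54 ± 0.89 (SE), adjusted p = 0.402). Adipoq, the hormone adiponectin, was at 0 to 1.75 CPM in HFD-U with a median of 0.931 and at 0.418 to 19.3 CPM in HFD-C with a median of 1.34 (log2 fold change -2.24 ± 0.86 (SE), adjusted p = 0.808). HFD-C replicate 6 held the highest value of both, and also of Cidec, a lipid droplet protein, at 23.2 CPM and of Scd1, the stearoyl-CoA desaturase, at 60.4 CPM. Without that mouse Lep and Adipoq fell under the count minimum, so the 7 markers were fitted again on the genes of the full comparison, a choice made after seeing the data. Lep was then -1.79 and called, and lay lower in all 6 HFD-U mice than in any HFD-C mouse. Adipoq was -0.73, Cidec (-1.84, adjusted p = 0.912, with all mice) -0.18 and Scd1 (-0.98, adjusted p = 0.883, with all mice) -0.40, none of them called, and the median of the 7 was -0.25. Of the 7, 2 were lower and called in the blocked fit, Adipoq (-1.41) and Cidec (-0.67) not being called. The 8 low-share libraries hold this mouse as 1 of 2 sedentary ones. HFD-C replicate 6 was also the lowest of its group for the tendon marker Fmod, at 0.615 CPM. The summed level of the 13 markers, carried mostly by Car3 and Fabp4, which muscle fibres and capillaries also express, was 1568 to 3145 CPM in HFD-U and 1838 to 2558 CPM in HFD-C, and Ucp1 was at 0 in all HFD-U mice. The part of fat tissue in other results was not tested.

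**Figure D3:**
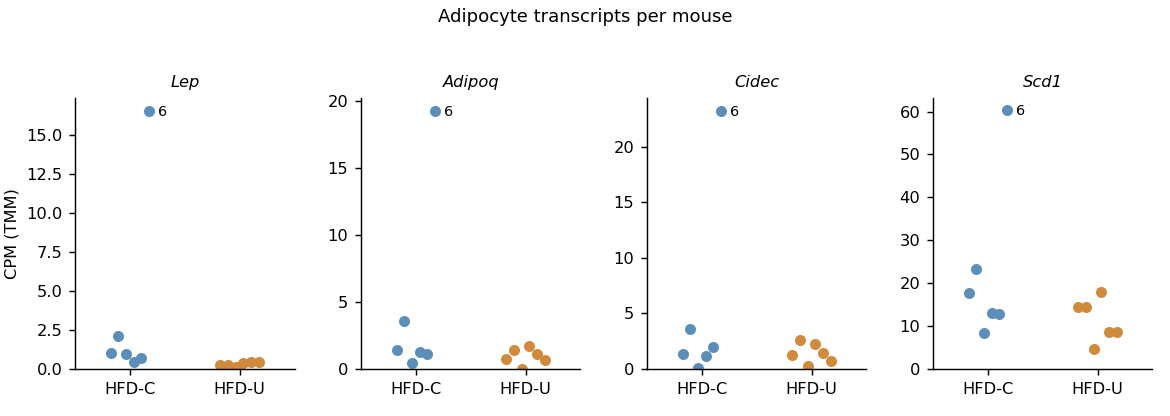
CPM of Lep, Adipoq, Cidec and Scd1 (y axis, from 0) in the 6 HFD-C and 6 HFD-U mice (x axis), 1 point per mouse. HFD-C replicate 6, marked 6, lies at 16.5, 19.3, 23.2 and 60.4 CPM, far above the other 11 mice.

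Markers of the other cell types differed by 1 gene per list at most, apart from endothelium. Among 21 endothelial and angiogenic genes Car4, a membrane-anchored carbonic anhydrase, was higher (1.11, adjusted p = 0.79; 0.86 and not called without HFD-U replicate 4) and Aplnr lower. Car4 held 4.12 to 20.2 CPM in HFD-U with a median of 12.6 and 2.98 to 12.0 CPM in HFD-C with a median of 3.71, and was higher in all 6 pairs. The macrophage marker Cd68 (-0.69, adjusted p = 0.883; -0.46 and not called without HFD-C replicate 4) was the only one of 9 macrophage and immune markers called, as Hba-a2, an α-globin (-0.76, adjusted p = 0.702), was of 5 blood markers. Prx (periaxin) of myelinating Schwann cells (-0.83, adjusted p = 0.79; -0.50 and not called without HFD-C replicate 5) was the only one of 5 Schwann cell markers (2 lower in the blocked fit and 3 in the low-share libraries). None of 8 smooth muscle and pericyte markers was called, the most abundant being Des, which fibres also express (-0.11, adjusted p = 0.997). Summed levels overlapped between groups in each of these lists, with 529 to 1039 CPM in HFD-U and 676 to 894 CPM in HFD-C for endothelial, 53.2 to 113 CPM in HFD-U and 65.6 to 114 CPM in HFD-C for macrophage, 119 to 306 CPM in HFD-U and 169 to 403 CPM in HFD-C for blood and 35.7 to 82.3 CPM in HFD-U and 44.7 to 211 CPM in HFD-C for Schwann cell genes. The part of these cells in other results was not tested.

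Which polyamine genes were called depended on the libraries compared. Of 31 genes of polyamine, arginine and proline metabolism 4 were higher and called and none lower (8 and 0 in the blocked fit), with a median of 0.096. In the low-share libraries 0 were higher and 5 lower (median 0.0097), among them Gamt, which makes creatine (-1.03), Srm, spermidine synthase (-0.62), and the antizymes Oaz1 (-0.56) and Oaz2 (-0.57), and the 4 genes named next, at 0.61 for Smox, 0.32 for Odc1, 0.59 for Aldh9a1 and 0.85 for Amd2, were not called there. Smox, spermine oxidase, ranged over 396 to 1195 CPM in HFD-U, with a median of 492, against 247 to 505 CPM in HFD-C, with a median of 368 (log2 fold change 0.71 ± 0.25 (SE), adjusted p = 0.757). HFD-U replicate 2 held the 1195 CPM, yet Smox stayed called without it. Odc1, ornithine decarboxylase, which makes putrescine and limits the rate of the pathway, ranged over 246 to 602 CPM in HFD-U, with a median of 402, against 182 to 411 CPM in HFD-C, with a median of 268 (log2 fold change 0.52 ± 0.21 (SE), adjusted p = 0.845; 0.38 and not called without HFD-U replicate 2). Aldh9a1, which oxidises aminoaldehydes on the way to carnitine and GABA, was 0.77, adjusted p = 0.842 (0.61 and not called without HFD-U replicate 4). Amd2 (0.79, adjusted p = 0.845; 0.64 and not called without HFD-U replicate 2), a copy of S-adenosylmethionine decarboxylase that can share reads with Amd1 and Amd-ps4 and is therefore uncertain, was higher in all 6 pairs, and was the only 1 of 28 cysteine and methionine genes called. Smox and Aldh9a1 were the 2 higher genes of 18 in beta-alanine metabolism. With the block 3 beta-alanine genes were higher and 0 lower, and 3 cysteine and methionine genes higher and 1 lower. The low-share libraries had 1 beta-alanine gene higher and 1 lower, and 1 cysteine and methionine gene higher and 4 lower.

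No fibre type gene was called over the 12 libraries. The adult myosin heavy chains varied widely between mice: Myh7 (slow) ranged over 14.7 to 185 CPM in HFD-U, with a median of 79.4, against 0.313 to 522 CPM in HFD-C, with a median of 108 (log2 fold change -1.08 ± 0.88 (SE), adjusted p = 0.997). Myh2 (2A) was 0.39, adjusted p = 0.997, Myh1 (2X) 0.35, adjusted p = 0.997 and Myh4 (2B) 0.062, adjusted p = 0.997. None of 16 slow fibre genes (median -0.61; Myl2, the slow regulatory light chain, -0.15, adjusted p = 0.997), of 7 genes of 2A and 2X fibres (median 0.15; 0.82 in the low-share libraries) or of 11 genes of 2B fibres (median -0.061; -0.38) was called. Of 32 genes of excitation-contraction coupling and calcium handling 2 were lower: Calm2, a calmodulin gene, ranged over 93.7 to 135 CPM in HFD-U, with a median of 116, against 127 to 192 CPM in HFD-C, with a median of 143 (log2 fold change -0.39 ± 0.12 (SE), adjusted p = 0.59), and the calcineurin-responsive factor Nfatc2 was -0.57, adjusted p = 0.661. None of 12 neuromuscular junction genes was called (Musk, the agrin receptor kinase, 0.27, adjusted p = 0.997). In the blocked fit 1 slow fibre gene and 5 genes of excitation-contraction coupling were lower and 2 neuromuscular junction genes higher. In the low-share libraries 4 of the 2B genes were lower and called, Pvalb, the calcium buffer parvalbumin (-0.70), and the fast troponins Tnnc2 (-0.54), Tnnt3 (-0.47) and Tnni2 (-0.46), and of the slow list Sln, sarcolipin (-1.59), was lower.

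Mitochondrial genes were near the sedentary level. Ndufb1 was the only 1 of 38 complex I subunits called (median -0.034; -0.30 in the low-share libraries), and none of 39 subunits of complexes II to V was (Atp5b, of the ATP synthase, 0.026, adjusted p = 0.997) nor any of 18 tricarboxylic acid cycle genes. Of 13 mRNAs coded by mitochondrial DNA 2 were lower, ND3 (-0.70, adjusted p = 0.816; -0.54 and not called without HFD-C replicate 4) and ND4L (-1.77, adjusted p = 0.562). ND4L was 0.19 in the low-share libraries. None of 14 PGC-1, ERR and PPAR regulators was called (Perm1, -0.23, adjusted p = 0.997). Of 29 genes of fatty acid uptake and oxidation 1 was higher, Pnpla2, the triglyceride lipase ATGL (0.38, adjusted p = 0.912; 0.26 and not called without HFD-U replicate 6), and of 19 PPAR target genes 1 was lower, Cidec, given above. Of 30 glycolysis and glycogen genes 3 were higher, among them Pfkfb1 (0.30, adjusted p = 0.79), which sets fructose 2,6-bisphosphate, and Pgk1, phosphoglycerate kinase (0.28, adjusted p = 0.842; 0.25 and not called without HFD-U replicate 2). Pgk1 was higher in all 6 pairs. The medians of these lists lay between -0.034 and 0.11. In the blocked fit 3 genes of fatty acid uptake and oxidation and 2 PPAR targets were higher and none lower, 5 glycolysis and glycogen genes were higher and 1 lower, 1 tricarboxylic acid cycle gene was higher, complexes II to V had 1 higher and 1 lower, and 1 PGC-1 list gene was lower. The low-share libraries gave 3 glycolysis and glycogen genes higher and 4 lower, the latter Pgam2 (-0.64), Aldoa (-0.50), Fbp2 (-0.43) and Ldha (-0.38), 3 complex I subunits lower, 2 PGC-1 list genes higher, and 2 PPAR targets higher and 1 lower.

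Other regulatory lists held few differences. Of 25 antioxidant and NRF2 target genes 2 were lower: Nqo1, a quinone reductase, did not overlap between groups, at 23.0 to 29.6 CPM in HFD-U, with a median of 25.0, against 30.6 to 33.3 CPM in HFD-C, with a median of 31.4 (log2 fold change -0.32 ± 0.093 (SE), adjusted p = 0.582), and Srxn1, sulfiredoxin, ranged over 21.0 to 26.3 CPM in HFD-U, with a median of 25.0, against 24.3 to 48.5 CPM in HFD-C, with a median of 34.8 (log2 fold change -0.56 ± 0.15 (SE), adjusted p = 0.493). Of 26 cholesterol and fatty acid synthesis genes Thrsp, a lipogenic regulator, was higher (0.52, adjusted p = 0.887; 0.38 and not called without HFD-U replicate 4) and Scd1 lower. Of 24 interferon-stimulated genes Oasl2 (0.91, adjusted p = 0.539) and Ifit1 (0.59, adjusted p = 0.912; 0.49 and not called without HFD-C replicate 1; 0.63 and not called in the blocked fit) were higher and Xaf1 (-0.47, adjusted p = 0.883; -0.37 and not called without HFD-C replicate 4) lower. Of 14 myokines and growth factors Nampt, the NAD salvage enzyme, was higher, with 162 to 255 CPM in HFD-U, with a median of 213, against 123 to 194 CPM in HFD-C, with a median of 167 (log2 fold change 0.40 ± 0.13 (SE), adjusted p = 0.658). Tbc1d1, the Rab GTPase-activating protein that gates GLUT4 traffic, was lower (-0.46, adjusted p = 0.868; -0.38 and not called without HFD-C replicate 4), the only 1 of 20 insulin signalling genes. Sesn1, a stress-induced regulator of AMPK and mTORC1, was higher (0.52, adjusted p = 0.816; 0.42 and not called without HFD-U replicate 3), the only 1 of 17 glucocorticoid response genes. None of 19 FOXO and atrophy genes (Sqstm1, -0.12, adjusted p = 0.997) or 31 proteasome subunits (Psmd2, 0.040, adjusted p = 0.997) was called. Among clock genes, Nr1d1 was the only 1 of 13 that peak with Dbp to be called (0.70, adjusted p = 0.808; 0.51 and not called without HFD-U replicate 3). In the blocked fit 6 of these 13 were higher and 0 lower. That fit also had 4 antioxidant genes lower, 5 myokines higher and 1 lower, 3 insulin signalling genes lower and 1 higher, 3 glucocorticoid response genes higher and 1 lower, and 1 FOXO gene higher. In the low-share libraries 4 insulin signalling genes were higher and 0 lower (Pik3r1, 0.85; Tbc1d4, 0.64; Mtor, 0.54; Pik3ca, 0.41), the opposite direction, and Tbc1d1 was -0.14 and not called. There 5 proteasome subunits and 4 antioxidant genes were lower and none higher, 3 glucocorticoid response genes were higher and 1 lower, 2 myokines were higher, and no interferon-stimulated gene and none of the 13 clock genes was called.

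**Figure D4:**
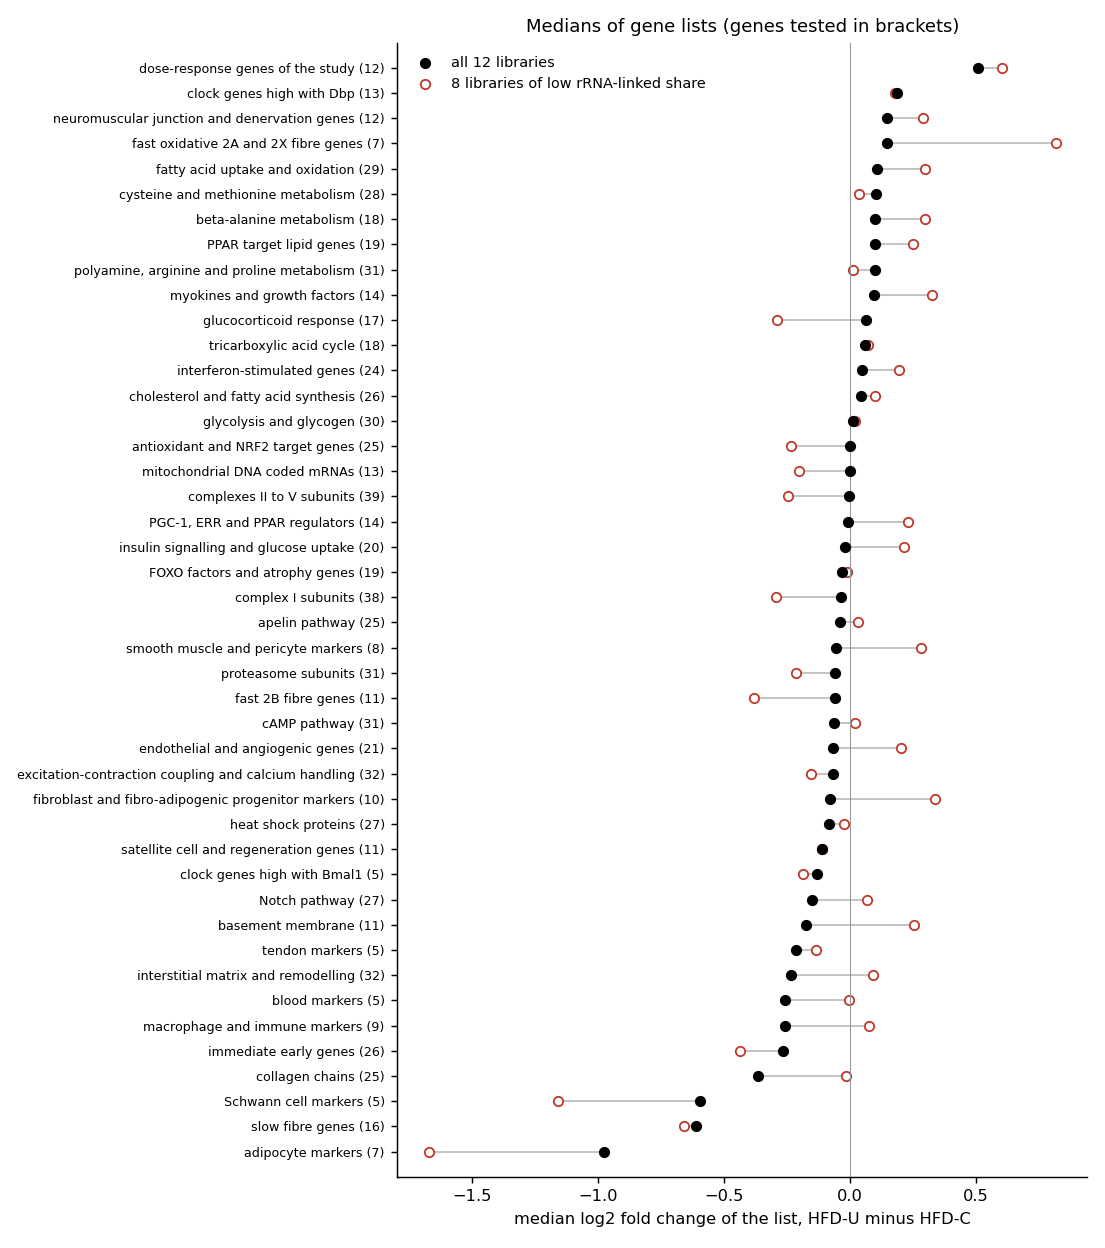
Median log2 fold change (x axis, HFD-U minus HFD-C) of 44 gene lists (y axis, genes tested in brackets; the rRNA-linked features and the 6 features of an earlier analysis are not drawn), with black points for all 12 libraries and open red points for the 8 libraries of low rRNA-linked share. Of the lists drawn, adipocyte markers lie lowest, at -0.98 and -1.67, and genes of 2A and 2X fibres move from 0.15 to 0.82.

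Lists drawn from these same libraries are not independent evidence of direction. Of the 12 dose-response genes that the study names 5 were higher and called in HFD-U and 1 lower (median 0.51; 8 and 1 in the blocked fit; 3 and 0 in the low-share libraries). Aldh1l1, a folate dehydrogenase, was 0.81, adjusted p = 0.674, and Phyhd1, a dioxygenase, was 0.49, adjusted p = 0.808 (0.36 and not called without HFD-U replicate 4). Car4, Sesn1 and Aldh9a1 are given above. Lars2, the mitochondrial leucyl-tRNA synthetase and a rRNA-linked feature here (-3.27, adjusted p = 0.236), was 0.0096 in the low-share libraries. The other 6 were not called: the glucocorticoid target Fkbp5 (0.62, adjusted p = 0.953), Foxo1 (0.39, adjusted p = 0.997), the insulin signalling subunit Pik3r1 (0.47, adjusted p = 0.925), xanthine dehydrogenase Xdh (0.48, adjusted p = 0.937), Fibin (0.66, adjusted p = 0.944) and Klf10 (-0.39, adjusted p = 0.952). Of 6 features named in an earlier analysis of these libraries, Map3k15 was higher and LOC118568007, Rn7sk, Gm38621, AY036118 (-2.79, adjusted p = 0.236) and LOC118568312 (-2.77, adjusted p = 0.236) lower. AY036118 and LOC118568312 were 0.28 and 0.27 in the low-share libraries.

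The clock repressors Bhlhe40 and Nr1d1 were higher in HFD-U than in the braked groups, with the smallest adjusted p of that comparison. The fit of HFD-U against the mean of HFD-25%, HFD-50% and HFD-75% tested 11935 genes; 1086 (9.1%) reached an unadjusted p of at most 0.05, 515 higher (4.32%) and 571 lower (4.78%) in HFD-U, and 6 (0.0503%) passed an edgeR Benjamini-Hochberg adjusted p of 0.05. Bhlhe40, the DEC1 repressor, ranged over 68.1 to 167 CPM in HFD-U (median 107), against 34.7 to 69.0 (HFD-25%), 37.2 to 56.8 (HFD-50%) and 43.2 to 76.0 CPM (HFD-75%) (log2 fold change 1.03 ± 0.14 (SE), adjusted p = 0.00196). Nr1d1, the REV-ERBα repressor, ranged over 34.6 to 119 CPM in HFD-U (median 71.4), against 17.4 to 47.1, 16.5 to 37.2 and 13.1 to 37.5 CPM in the same order (log2 fold change 1.40 ± 0.21 (SE), adjusted p = 0.00375). Of the 18 braked mice, 16 lay below the lowest HFD-U mouse for Bhlhe40, and 5 of 6 HFD-U mice lay above all 18 for Nr1d1. These levels were scaled over all 36 libraries. Without HFD-U replicate 2, 3 or 6 the genes at the adjusted threshold numbered 2, 1 and 2. In the sedentary groups, which this fit did not compare, Bhlhe40 averaged 90.5 CPM in HFD-C and 79.5 CPM in NFD-C, and Nr1d1 45.2 and 50.1 CPM. Bhlhe40 of HFD-U did not differ detectably from HFD-C (log2 fold change 0.28, adjusted p = 0.997).

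Of 13 clock genes that peak with Dbp, 8 were higher in HFD-U than in the braked groups and called and none lower (median 0.38). Beside Nr1d1 and Bhlhe40 they were Ciart (1.40, adjusted p = 0.0724), Dbp (0.90, adjusted p = 0.339), Bhlhe41 (0.82, adjusted p = 0.101), Hlf (0.40, adjusted p = 0.471; 0.34 and not called without HFD-U replicate 2), Tef (0.23, adjusted p = 0.404; 0.18 and not called without HFD-U replicate 3) and Nr1d2 (0.21, adjusted p = 0.449; 0.16 and not called without HFD-U replicate 3). Of 5 that peak with Bmal1, 3 were lower and none higher, among them Arntl itself (-1.03, adjusted p = 0.396) and Nfil3 (-0.77, adjusted p = 0.323). These members of opposite phases thus differed in opposite directions. Arntl ranged over 5.11 to 9.71 CPM in HFD-U (median 6.96). Its medians were 7.73, 15.0 and 11.9 CPM in HFD-25%, HFD-50% and HFD-75%, with the highest mice at 23.1, 36.9 and 33.4 CPM. For Arntl and Nfil3 the lowest mouse of each braked group lay within the HFD-U range. Means in HFD-U and HFD-C were 7.05 and 8.44 CPM for Arntl and 29.0 and 31.9 for Nfil3. This fit did not compare HFD-C. The labels give no time of day of collection for any group, and its part in these differences was not tested.

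Promoters of the clock genes were read on both strands for the E-box CACGTG, the element that BMAL1 and CLOCK and the DEC repressors bind. Of 20 clock genes 16 had an entry in the RefSeq table (GRCm38.p6), and 5 of them (Cry1, Tef, Per1, Ciart and Bhlhe41) held the letters within 300 bases around the start, against 7.15% of all 32851 windows. Nr1d1, Bhlhe40, Dbp, Hlf and Nr1d2, which were also higher than in the braked groups, were not among these 5. Each of them had either no entry or no such letters in its windows. A match of letters describes the window and not a bound site. A clock gene counted where any of its windows held the letters. The gene count and the share of single windows are therefore unlike measures. Stretches from 3 genes of that list that were higher are shown to let the spacing of the boxes be seen, with the E-box in capitals: Ciart on the minus strand at chr3:95882247-95882364, Bhlhe41 on the minus strand at chr6:145865548-145865593, and Tef on the plus strand at chr15:81802526-81802571 and, for its other start, chr15:81811256-81811301.
Ciart: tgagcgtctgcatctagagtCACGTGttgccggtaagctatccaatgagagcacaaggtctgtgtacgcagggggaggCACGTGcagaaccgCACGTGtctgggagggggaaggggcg
Bhlhe41: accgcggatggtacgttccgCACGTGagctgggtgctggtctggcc
Tef, upstream start: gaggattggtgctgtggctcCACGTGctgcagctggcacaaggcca
Tef, downstream start: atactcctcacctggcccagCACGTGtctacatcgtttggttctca
Ciart held 3 E-boxes and each of the other stretches 1. The counts were made on files whose chromosome accessions are those of GRCm39, and the sequences were matched by gene symbol alone.

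**Figure D5:**
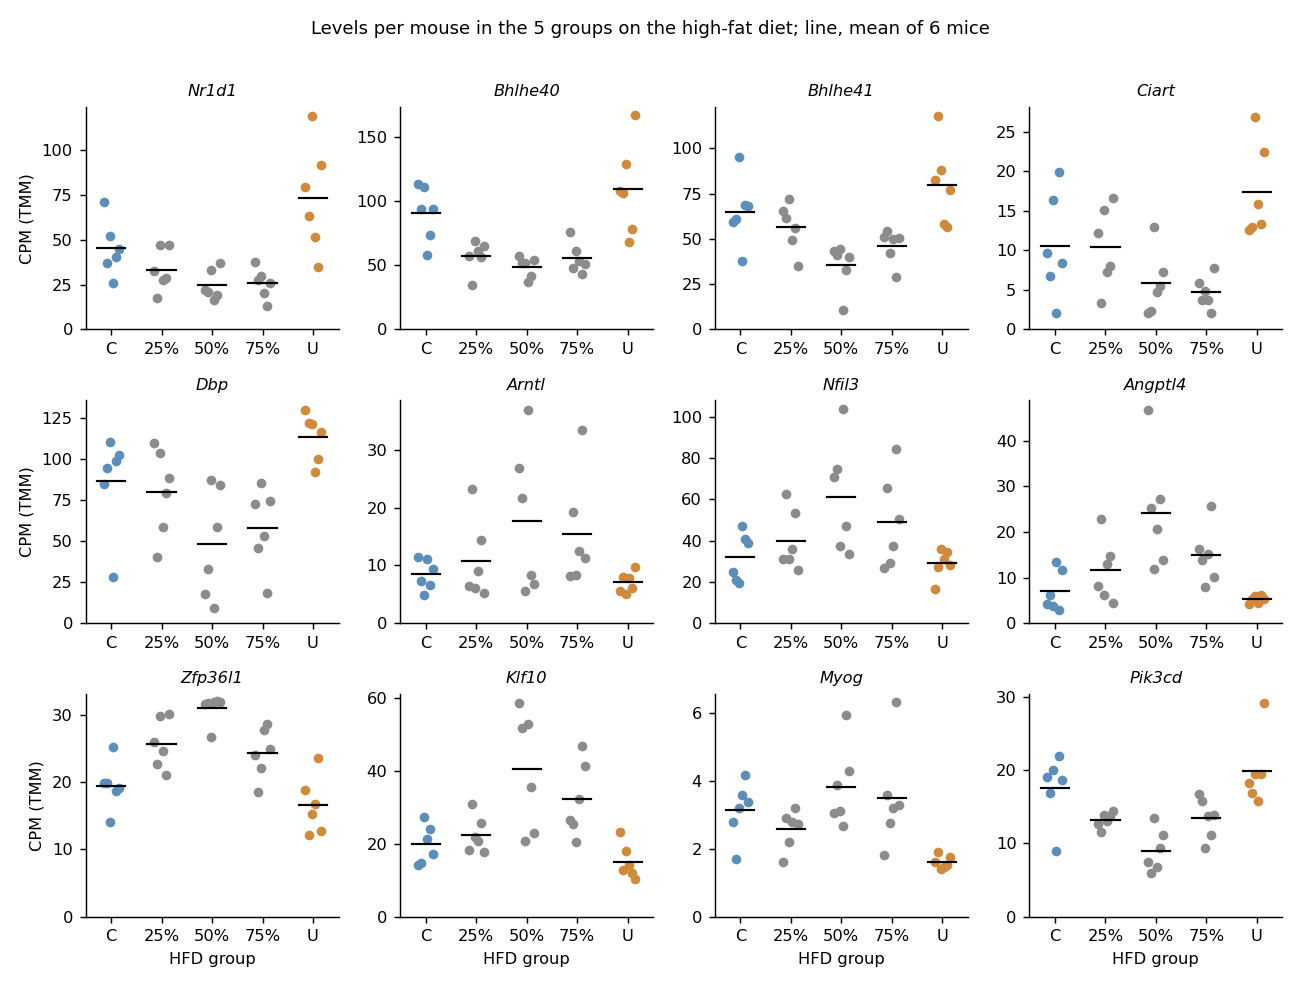
CPM of 12 genes (y axis, from 0) in the 5 groups on the high-fat diet (x axis: C, HFD-C; 25%, 50% and 75%, the braked groups; U, HFD-U), 1 point per mouse, with a line at the mean of 6 mice. Nr1d1, Bhlhe40, Bhlhe41, Ciart and Dbp are highest in HFD-U by mean, and Angptl4 in HFD-U lies within 4.28 to 6.10 CPM.

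The other genes at an adjusted p of at most 0.05 between HFD-U and the braked groups were Angptl4, a fasting-induced inhibitor of lipoprotein lipase (log2 fold change -1.63 ± 0.31 (SE), adjusted p = 0.0377), Zfp36l1, an mRNA decay factor (log2 fold change -0.70 ± 0.12 (SE), adjusted p = 0.0119), Pik3cd, the PI3-kinase δ catalytic subunit (log2 fold change 0.76 ± 0.14 (SE), adjusted p = 0.0377), and Sh3bp5 (log2 fold change 0.46 ± 0.088 (SE), adjusted p = 0.0377). Angptl4 ranged over 4.28 to 6.10 CPM in HFD-U (median 5.26), with medians of 10.5, 22.9 and 14.4 CPM in HFD-25%, HFD-50% and HFD-75%, and 17 of the 18 braked mice lay above every HFD-U mouse. Sedentary HFD-C mice, which this fit did not compare, lay near HFD-U, with an Angptl4 median of 5.26 CPM (2.96 to 13.5). Means in HFD-U and HFD-C were 16.5 and 19.4 CPM for Zfp36l1, 19.8 and 17.6 for Pik3cd and 30.7 and 27.3 for Sh3bp5. The braked groups were thus farther from HFD-C than HFD-U was for these 4 genes. Over all genes 4.78% were lower and 4.32% higher in this comparison. Of 20 PPAR targets 5 were lower and none higher, among them Pdk4, which shuts pyruvate out of the mitochondrion (-0.64, adjusted p = 0.411), Cpt1b, which admits fatty acids (-0.80, adjusted p = 0.345), and Ucp3 (-0.47, adjusted p = 0.345). Few reads were counted for Cpt1b, at 0.494 to 3.14 CPM in HFD-U. Whether reads of Cpt1b were lost to an overlapping feature was not tested, so its fold change is uncertain. Means in HFD-U and HFD-C were 1.88 and 2.41 CPM for Cpt1b, 1131 and 1143 for Pdk4 and 331 and 296 for Ucp3. Of 19 FOXO and atrophy genes 3 were lower, among them Foxo1 (-0.79, adjusted p = 0.349) and the ubiquitin ligase Trim63 (-0.88, adjusted p = 0.49; -0.77 and not called without HFD-U replicate 1), and 1 was higher. Of 17 glucocorticoid response genes 4 were lower, with Fkbp5 at -0.76, adjusted p = 0.263. The endothelial list had 5 of 22 lower, among them Egfl7 (-0.83, adjusted p = 0.205), Cldn5 (-0.76, adjusted p = 0.155) and Sox18 (-0.91, adjusted p = 0.0757), and the Notch list 6 of 27 lower and 1 higher, with Nrarp (-0.82, adjusted p = 0.356) and Notch1 (-0.46, adjusted p = 0.479; -0.40 and not called without HFD-U replicate 2). Myog (-1.01, adjusted p = 0.0808) and Myod1 (-0.74, adjusted p = 0.508; -0.65 and not called without HFD-U replicate 4) were lower here as they were against sedentary mice, a comparison that shares the HFD-U mice. Of the rest with the smallest p, Tmem135 (0.43, adjusted p = 0.0554) and Dusp10 (0.95, adjusted p = 0.0712) were higher and Klf10 (-1.02, adjusted p = 0.0724) and Lzts2 (-0.40, adjusted p = 0.0839) lower. Means in HFD-U and HFD-C were 45.5 and 40.7 CPM for Dusp10, 15.1 and 19.8 for Klf10 and 27.2 and 32.1 for Lzts2. They were 25.0 and 18.9 CPM for Tmem135, 7.30 and 7.81 for Sox18 and 6.28 and 5.98 for Cldn5.

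HFD-U had the lowest of the 6 groups' values of edgeR's common biological coefficient of variation, a measure of spread between mice. It came to 0.222 in HFD-U and 0.229 in HFD-75%, and the other groups held 0.244 (HFD-25%), 0.249 (NFD-C), 0.274 (HFD-C) and 0.279 (HFD-50%). Without the mice numbered 1 it was 0.220 in HFD-U and 0.197 in HFD-75%, so the order at the low end rested on those mice. No test of the spread was made.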

How the data were processed

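The authors deposited 1 table of raw gene counts for all 36 libraries (46893 features), made, per the labels, from poly(A)-selected 150 bp paired-end reads; their processing notes name HISAT2 2.0.5, StringTie 1.3.3b, featureCounts 1.5.0-p3, DESeq2 1.20.0 and edgeR 3.22.5. The labels name mm10, while the chromosome accessions in the table are those of GRCm39, so no coordinates of genes are given; counting by strand was not stated, so antisense partners cannot be told apart. HFD-U and HFD-C libraries were compared in R 4.3.3 with edgeR 4.0.16 (TMM scaling, quasi-likelihood F-test, two-sided, genes averaging 25 or more counts in the 12 libraries, Benjamini-Hochberg adjustment over all 12023), each mouse being 1 replicate; HFD-U was also set against the mean of the 3 braked groups (11935 genes, 24 libraries). Same-numbered mice of HFD-U and HFD-C deviated together (correlations of 0.132 to 0.536), so the mouse number was taken as pairing, although HFD-U mouse 2 correlated better with HFD-C mouse 3 (0.271) than with its own number (0.180); the labels do not say what a number marks. Alternatives were a block for that number, DESeq2 1.42.0, other scalings, no minimum count, one fit over the high-fat groups, the low-share libraries, a term for the library set, the rRNA-linked share as covariate, and each library left out. The genes named are the 12 higher and 12 lower with the smallest p (predicted identifiers and rRNA-linked features left out), those past adjusted p of 0.05 and 2-fold in the blocked fit, the 2 members of each list with the smallest p at or below 0.05 or else the most abundant, the adult myosin heavy chains, the 12 dose-response genes the study names, 6 features from an earlier analysis of these libraries and the 6 higher and 6 lower in HFD-U against the braked groups; further members of lists were named after their values were seen. Some genes that this rule names are not reported here. Members and lists were chosen with earlier results of these data known. On simulated counts with known 2-fold changes the HFD-U against HFD-C fit recovered 141 of 189 changed genes with 8 false calls (11896 genes). The simulation held no smaller changes, no split of the HFD-C libraries and no pairing, so recovery in the data can differ.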

Additional observations from a re-analysis of the deposited data

Results flagged for a closer look

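In 33 of the 348 groups of 6 mice looked at (9.48%), 1 mouse of a named gene lay far from the other 5 by Dixon's criterion (the gap to the nearest mouse over the range of the group, at the 95% level). Chance flags about 1 in 20 groups, and genes of a shared function in 1 mouse are not independent. Values are CPM. HFD-25% replicate 2 stood apart for Bhlhe40 (34.7; the others 56.5 to 69.0). HFD-25% replicate 3 stood apart for Sh3bp5 (27.1; the others 19.7 to 22.2). HFD-50% replicate 2 stood apart for Sh3bp5 (25.1; the others 19.7 to 21.6). HFD-50% replicate 3 stood apart for Zfp36l1 (26.7; the others 31.6 to 32.0). HFD-50% replicate 4 stood apart for Bhlhe41 (10.6; the others 32.8 to 44.2). HFD-C replicate 1 stood apart for Hsp90b1 (106; the others 83.3 to 91.2) and Perm1 (347; the others 87.3 to 183). HFD-C replicate 3 stood apart for Gm38621 (9.13; the others 1.27 to 4.19). HFD-C replicate 4 stood apart for Car4 (12.0; the others 2.98 to 6.15) and Hdac5 (106; the others 72.5 to 85.0). HFD-C replicate 5 stood apart for Oasl2 (2.18; the others 1.10 to 1.37). HFD-C replicate 6 stood apart for 4 adipocyte transcripts, Lep at 16.5, Adipoq at 19.3, Cidec at 23.2 and Scd1 at 60.4, where the other 5 mice reached at most 2.09, 3.57, 3.57 and 23.3, and also for Neu2 at 14.9 and, as the lowest, Fmod at 0.615. HFD-U replicate 1 stood apart for Hspa4l (15.3; the others 6.25 to 8.88). HFD-U replicate 2 stood apart for Fgl2 (25.8; the others 7.59 to 12.8), Gm22009 (0.615; the others 0 to 0.112), Myod1 (21.6; the others 7.86 to 11.8) and Smox (1195; the others 396 to 598). HFD-U replicate 3 stood apart for Gm38621 (1.79; the others 0.117 to 0.538), Fibin (31.5; the others 10.4 to 18.3) and Tef (431; the others 344 to 372). HFD-U replicate 4 stood apart for Klf4 (16.1; the others 7.14 to 9.91), Aldh9a1 (38.9; the others 18.9 to 24.9), Xaf1 (4.50; the others 2.52 to 3.25), ND4L (50.5; the others 13.8 to 22.3) and Phyhd1 (45.4; the others 26.3 to 32.5). HFD-U replicate 5 stood apart for Aplnr (4.47; the others 1.17 to 2.40). HFD-U replicate 6 stood apart for Nfatc2 (24.1; the others 11.4 to 14.3) and Pik3cd (29.2; the others 15.8 to 19.4). HFD-U differed from the other running groups, by edgeR's quasi-likelihood test of that difference with Benjamini-Hochberg adjustment, for Bhlhe40 (log2 fold change 1.03), Nr1d1 (log2 fold change 1.40), Zfp36l1 (log2 fold change -0.70), Pik3cd (log2 fold change 0.76), Sh3bp5 (log2 fold change 0.46) and Angptl4 (log2 fold change -1.63). The causes of these values were not tested.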

How the results depend on the processing

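The counts of genes depended on the processing. At unadjusted p, HFD-U against HFD-C gave 657 genes, against 1232 with the replicate block, 1390 in the low-share libraries, 1490 with the rRNA-linked share as covariate, 1426 with a term for the library set, 2251 with no minimum count and 527 to 829 without 1 library. At adjusted p it gave 0, against 28 with DESeq2, 9 with no minimum count, 8 in one fit over the high-fat groups, 11 with the replicate block, and 0 to 8 without 1 library (6 without HFD-C replicate 5, 8 without HFD-C replicate 6); with a 2-fold change as well these were 16, 8, 7, 5 and 0 to 8. The share of higher genes, 39.4%, was 47.8% in the low-share libraries, 45.3% with no minimum count, 47.1% with the block and with the set term, 47.7% with the covariate and 38.4% to 45.5% without 1 library. Groups that did not overlap numbered 35, against 57 with no minimum count, 1597 in the low-share libraries (6 mice against 2), 98 in mice numbered 2 to 6 and 49 to 89 without 1 library. HFD-U against the braked groups gave 1086 genes at unadjusted p, 2824 with no minimum count and 717 to 1506 without 1 library; at adjusted p it gave 6, against 48 with DESeq2, 3 in mice numbered 2 to 6, 11 with no minimum count, 16 with the replicate block and 1 to 6 without 1 library. Same-numbered mice of those groups correlated at -0.204 to 0.580, so their numbers were not taken as pairs. In the low-share libraries, with the covariate and with the set term, in that order, log2 fold changes turned sign for Col5a1 (0.077, 0.13, 0.075), Hspg2 (0.26, 0.27, 0.26), ND4L (0.19, 0.47, 0.19), Myh4 (-0.090, -0.13, -0.092), Lars2 (0.0096, 0.13, 0.0075), AY036118 (0.28, 0.40, 0.28), LOC118568312 (0.27, 0.38, 0.27), Myl2 (0.045, 0.19, 0.044), Fmod (0.84, 0.88, 0.84), Atp5b (-0.091, -0.066, -0.093), Perm1 (0.20, 0.38, 0.19) and Psmd2 (-0.058, -0.034, -0.060), and for Gm22009 with the set term (1.01). Without 1 library, genes near 0 crossed it: Myh2 (-0.030 to 0.70), Myh4 (-0.036 to 0.16), Myl2 (-0.48 to 0.21), Fmod (-0.37 to 0.087), Atp5b (-0.032 to 0.098), Perm1 (-0.37 to 0.099) and Psmd2 (-0.011 to 0.086). Over named genes and settings, 2399 values kept direction and side of the threshold, 388 lost p of at most 0.05, 34 gained it and 52 turned sign; of list medians 956 stayed and 54 moved by more than 1 SD. Of 96 named genes at p of at most 0.05, 56 kept it with each library left out (for Lep, Adipoq, Creb3l1 and Gm22009, which fell under the count minimum without 1 library, on the genes of the full comparison, a choice made after seeing the data). The cause of each change was not tested. Other scalings moved the median of all genes by at most 0.02. Depth limits genes under a mean count of 25, which were not tested.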
